A study of Mus musculus with 2 samples.

Results

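The BCL2 family of survival and death genes was followed in CFU-E cells (colony-forming unit erythroid, the progenitors that normally depend on erythropoietin), described by the protocol as lacking the erythropoietin receptor. The family was represented by 10 genes chosen by symbol: the pro-survival genes Bcl2, Bcl2l1 and Mcl1, the BH3-only genes Bcl2l11, Bbc3, Pmaip1, Bid and Bad, and the effector genes Bax and Bak1. Of these, 9 were matched to a probe set annotated to exactly 1 gene, out of 17874 genes in the table. Each of the 9 had 1 such probe set in the deposited table. Bax was not analysed here.

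Expression had been measured on 2 Affymetrix mouse arrays, 1 of cells kept for 3 h in Panserin medium (3 h) and 1 of cells lysed at the start (0 h). Per the protocols, both samples were EpoR-/- fetal liver cells of gestational day 13.5 on a BALB/c background, depleted of erythrocytes by lysis and, with antibodies, of lymphoid, myeloid, megakaryocytic and late erythroid cells, and both had spent 1 h without growth factors. The livers of 40 to 50 embryos went into a sort, and the sources used here do not say whether both samples shared a pool. The labels differ from the protocol in 3 places: the genotype label reads Epo KO, only the 0 h sample carries a strain label, and the 3 h sample's treatment label names supplemental growth factors where the protocol adds none.

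With 1 array per time no difference below has an error, a test or a replicate check, and precision is limited by having so few arrays. Values are log2 expression, so a difference of 1 is 2-fold, and every difference is 3 h minus 0 h. The median log2 value over genes and arrays, 5.70, served as the floor, and the 9284 genes whose higher value was at or above it were counted. Among these the median difference was 0.01 and the robust SD 0.31. Epor, the receptor gene that the protocol names as deleted, had 6.89 at 3 h and 7.08 at 0 h, so both values passed the floor. These values do not bear out the genotype, and they cannot test it either, because where the probe set lies relative to the deletion is unknown and no wild-type array was used here. The erythroid progenitor markers were present, with Klf1 at 12.31 at 3 h and 12.03 at 0 h and Kit at 9.03 at 3 h and 9.01 at 0 h. Transcripts of other cell types were present as well, among them the hepatocyte gene Afp (14.53 at 3 h and 14.60 at 0 h) and the granulocyte gene Mpo (12.15 at 3 h and 11.70 at 0 h). In such a mixture, fewer cells of a type and less RNA per cell cannot be told apart.

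Proteins of the BCL2 family set whether the outer mitochondrial membrane stays closed. Pro-survival members hold the effectors BAX and BAK in check, BH3-only proteins relay stress or loss of growth factors by binding the pro-survival proteins or the effectors, and active effectors open the membrane, release cytochrome c and start the caspase cascade. In erythroid progenitors erythropoietin signals through STAT5 to keep survival genes such as Bcl2l1 on, and cells deprived of it die by this route. Many family members are controlled through protein stability, cleavage or phosphorylation, which an array of RNA does not measure.

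The family did not move together between the 3 h and the 0 h array, and the BH3-only genes went both ways. Bid was the only member counted that reached 1.5-fold, and it was 1.53-fold higher at 3 h. Pmaip1 was also higher, while Bbc3 and Bcl2l11 were lower, and the pro-survival genes differed by 0.27 or less in size. The 7 members at or above the floor reached it on both arrays. Of these, 1 was at least 1.5-fold higher, against a background of 6.94% of counted genes, and none was 1.5-fold lower, against 4.80%. None reached 2-fold in either direction, where the background was 2.00% higher and 0.872% lower. By any amount, 4 of the 7 were higher and 3 lower, against 51.5% and 48.5% of counted genes, so the members' split was close to that of all genes. Their median difference was 0.09, against 0.01 for all counted genes.

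Mcl1, which encodes a short-lived survival protein needed by many blood progenitors, had 9.80 at 3 h and 9.87 at 0 h. Its difference was -0.08, so the values of both arrays lay close together. Bcl2l1, which encodes Bcl-xL, the survival factor of late erythroid cells, had 6.26 at 3 h and 5.99 at 0 h. This was 1.21-fold higher at 3 h, and 78.4% of counted genes had a lower difference. Its probe set is of the kind that matches several transcripts, and the splice forms of Bcl2l1, which include a pro-death short form, cannot be told apart with it. Bcl2, the founding member of the family, had 5.48 at 3 h and 5.45 at 0 h, below the floor on both arrays, with a difference of 0.03. The floor is a median over genes and not a measured background, so a value under it is no evidence that a gene is silent.

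Bid encodes a BH3-only protein that caspase-8 cleaves into an active form and that carries death receptor signals to the mitochondria. It had 9.71 at 3 h and 9.09 at 0 h, a difference of 0.61, and 93.8% of counted genes had a lower one. With the line for 1.5-fold at 0.58 on this scale, Bid lay just past it, and Pmaip1 was the nearest member below. Pmaip1 encodes NOXA, a p53-induced protein that binds mainly MCL1, and it had 7.74 at 3 h and 7.32 at 0 h, 1.34-fold higher. Bad encodes a protein that survival kinases hold inactive by phosphorylation, and it had 7.37 at 3 h and 7.28 at 0 h, which left it within 0.09.

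The other 2 BH3-only genes were lower at 3 h. Bbc3 encodes PUMA, a target of p53 and of FoxO factors, and had 7.61 at 3 h and 7.99 at 0 h, 1.31-fold lower. Bcl2l11 encodes BIM, which growth factor withdrawal induces in many blood cells through FoxO factors, and had 6.57 at 3 h and 6.92 at 0 h, 1.28-fold lower. Of counted genes, 11.3% had a lower difference than Bbc3 and 13.3% a lower one than Bcl2l11, so neither stood at the edge of all genes. Among the BH3-only genes the differences therefore spanned -0.39 to 0.61, with 3 higher and 2 lower and a median of 0.09.

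Of the effectors, Bak1 alone was measured. It had 4.15 at 3 h and 4.69 at 0 h, both below the floor, and the difference of -0.54 was lower than that of all but 2.74% of the genes below the floor. Its probe set carries the suffix for possible matches to more than 1 gene and may hold their signal too. No effector reached the floor, and the class therefore has no median. The pro-survival genes at or above the floor, Bcl2l1 and Mcl1, had a median of 0.10, and the BH3-only and effector genes at or above it had one of 0.09. The pro-survival median exceeded the death median by 0.0043, which is small beside the robust SD of 0.31. Over all 9 measured members, floor or not, the medians were 0.03 for the pro-survival and -0.13 for the death genes, a gap of 0.16.

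**Figure D1:**
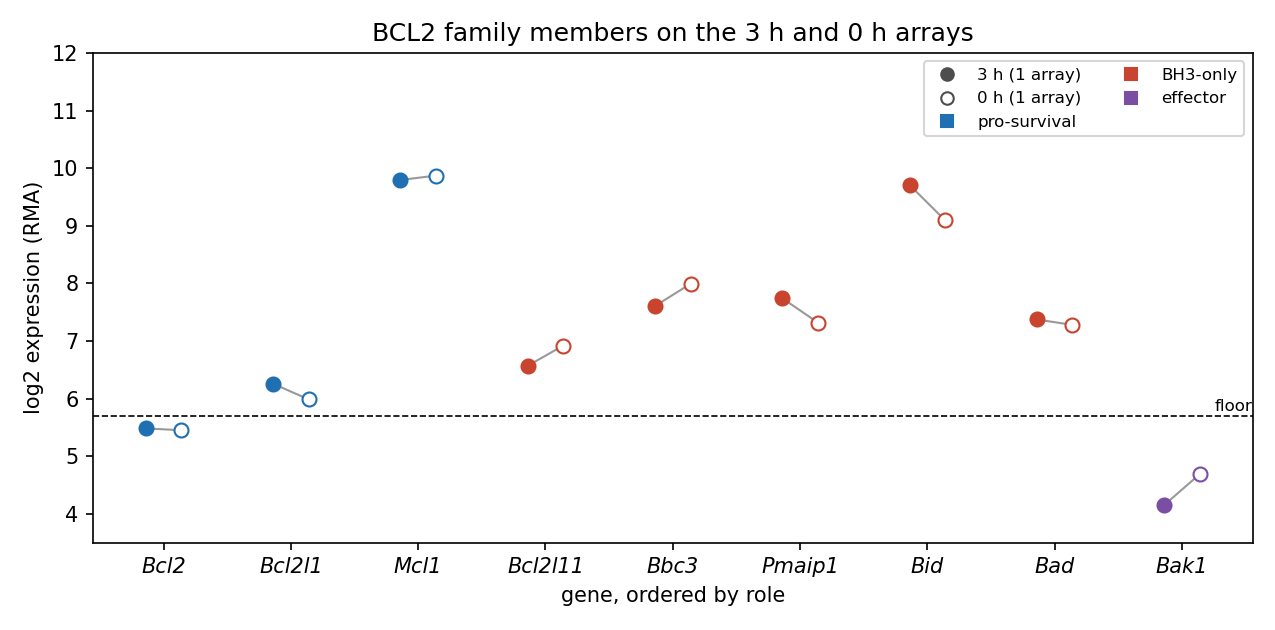
Log2 expression of the 9 measured members, in order of role, with the 3 h array as a filled and the 0 h array as an open circle (1 array each, no error). Bid and Pmaip1 are higher and Bbc3 and Bcl2l11 lower at 3 h, and Bcl2 and Bak1 lie below the floor of 5.70 on both arrays.

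**Figure D2:**
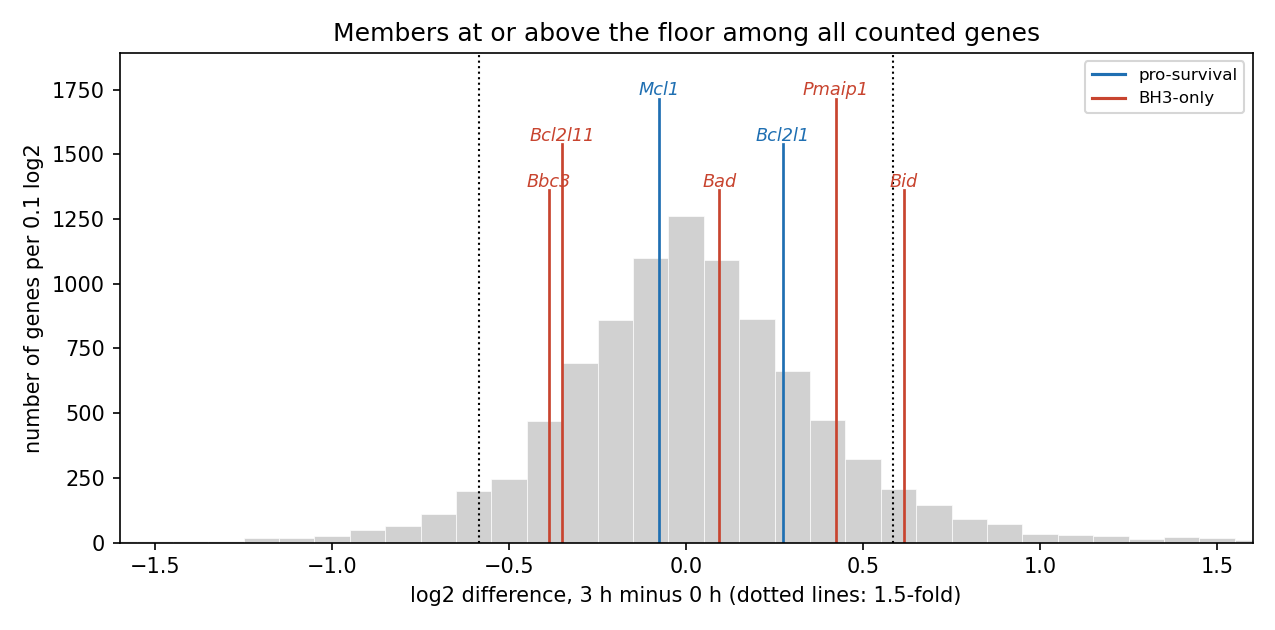
Histogram of the log2 differences (3 h minus 0 h, shown from -1.6 to 1.6) of the counted genes, with the 7 members at or above the floor as lines in the colour of their role. Bid, at 0.61, is the only one past the dotted lines for 1.5-fold, and the others lie between -0.39 and 0.42.

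Promoter sequence is shown for 4 members, chosen after their values were seen: the 2 BH3-only genes that were lower, the BH3-only gene that was highest, and the pro-survival gene that was higher. Bcl2l1, Bcl2l11 and Bbc3 have several windows, and for each the window shown is the one with a FOXO or GATA match. The windows come from RefSeq (GRCm38.p6), run from 250 bases before to 50 bases after an annotated gene start on the gene's own strand, and are written 5′ to 3′. Capitals mark matches on either strand to the FOXO motif TGTTTAC or the GATA motif AGATAA.
Bcl2l11, chr2:128125788-128126087, plus strand: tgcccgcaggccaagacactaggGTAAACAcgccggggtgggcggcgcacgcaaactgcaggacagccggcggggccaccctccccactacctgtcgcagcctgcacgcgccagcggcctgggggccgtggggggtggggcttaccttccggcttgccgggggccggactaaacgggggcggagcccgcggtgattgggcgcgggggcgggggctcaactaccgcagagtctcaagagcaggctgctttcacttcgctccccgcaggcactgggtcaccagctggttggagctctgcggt
Bbc3, chr7:16310011-16310310, plus strand: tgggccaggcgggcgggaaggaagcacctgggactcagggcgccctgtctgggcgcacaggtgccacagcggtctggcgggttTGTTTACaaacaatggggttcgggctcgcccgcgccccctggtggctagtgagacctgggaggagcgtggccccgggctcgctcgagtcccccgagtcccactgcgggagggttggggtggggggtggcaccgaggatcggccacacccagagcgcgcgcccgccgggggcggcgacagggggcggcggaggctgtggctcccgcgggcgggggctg
Bid, chr6:120916775-120917074, minus strand: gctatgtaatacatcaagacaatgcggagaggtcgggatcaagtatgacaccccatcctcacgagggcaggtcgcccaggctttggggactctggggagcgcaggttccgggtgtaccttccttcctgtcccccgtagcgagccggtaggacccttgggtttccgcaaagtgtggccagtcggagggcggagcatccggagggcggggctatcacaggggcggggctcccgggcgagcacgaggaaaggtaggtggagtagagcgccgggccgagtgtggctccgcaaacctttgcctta
Bcl2l1, chr2:152828440-152828739, minus strand: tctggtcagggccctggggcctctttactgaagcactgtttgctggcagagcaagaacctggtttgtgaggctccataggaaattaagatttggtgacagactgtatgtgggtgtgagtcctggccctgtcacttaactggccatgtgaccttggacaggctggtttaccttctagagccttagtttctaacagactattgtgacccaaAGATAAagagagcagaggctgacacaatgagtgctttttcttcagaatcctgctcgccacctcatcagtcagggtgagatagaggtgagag

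The search covered 15 windows of 9 members, Bax included, since some genes have several annotated starts. No window was available for Pmaip1, so its promoter was not searched for any motif. The FOXO motif was in 2 windows, 1 of Bcl2l11 and 1 of Bbc3, and a tie to their lower values was not tested. The match begins 227 bases before the gene start in Bcl2l11 and 167 bases before it in Bbc3. Of all 32851 RefSeq windows of this length, 3.65% hold the FOXO motif. The GATA motif was in 1 window, of Bcl2l1, 41 bases before the start, and in 11.2% of all windows. The E-box CACGTG was in 1 further window of Bbc3 and in the window of Bax, against 7.15% of all windows. The p53 half-site was in the window of Bax alone, against 8.36%. The AP-1 motif TGANTCA (7.81% of all windows) and the STAT5 motif TTCNNNGAA (8.30%) were in none of the 15, and no motif searched was in the window of Bid. The motifs do not overlap each other in these windows. The background shares are per window, and a gene with several windows has more chances to hold a match. A match is letters in a window and not a shown binding site, and a window without one says nothing of the factor.

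Among the rest of the BCL2 family, the lowest differences among counted genes were those of 2 mitophagy receptor genes. The list held 16 further genes, of which 12 were measured and 7 reached the floor, 5 of them at 3 h and 7 at 0 h. None of the 7 was at least 1.5-fold higher, against 6.94% of counted genes, and 2 were at least 1.5-fold lower, against 4.80%. Bnip3, a hypoxia-induced gene whose protein acts in mitophagy and cell death, had 10.67 at 3 h and 11.38 at 0 h, 1.63-fold lower. Bcl2l13, another mitophagy receptor gene, had 8.84 at 3 h and 9.47 at 0 h, 1.55-fold lower. Both values of each gene were well above the floor.

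Next came Bcl2l12, with 6.79 at 3 h and 7.29 at 0 h, a difference of -0.50. Bcl2l14 (5.47 at 3 h and 5.71 at 0 h) reached the floor at 0 h alone, as did Bok (5.65 at 3 h and 5.73 at 0 h), which encodes an effector-like protein, so both were counted through the array on which they were higher. The pro-survival gene Bcl2l2, which encodes BCL-W, was higher with 6.32 at 3 h and 6.12 at 0 h, and so was the autophagy gene Becn1, with 10.25 at 3 h and 10.11 at 0 h. Over all 12 measured genes, floor or not, 5 were higher and 7 lower and the median was -0.16. Of all 17874 genes, floor or not, 8965 were higher and 8907 lower, with a median of 0.0009. Over the 7 counted genes of the list the median was -0.24, a value set by Bcl2l14 itself. With the floor raised to the 60th percentile of gene values it was -0.57 over 4.

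Below the floor on both arrays were the BH3-only genes Bmf (5.06 at 3 h and 4.86 at 0 h), Hrk (5.69 at 3 h and 5.65 at 0 h) and Bik (3.55 at 3 h and 2.96 at 0 h). Bcl2l10 (3.69 at 3 h and 4.03 at 0 h) and Bcl2l15 (3.37 at 3 h and 4.07 at 0 h) were below it too. Bcl2a1a, Bcl2a1b, Bcl2a1d and Bnip3l were not analysed here.

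Genes that act downstream of the family at the mitochondria split into 7 higher and 9 lower, against 51.5% and 48.5% of counted genes. All 16 measured of 18 reached the floor on both arrays, and their median was -0.10. Of these, 1 was at least 1.5-fold higher, against 6.94% of counted genes, and none was 1.5-fold lower, against 4.80%. The one past 1.5-fold was Apaf1, the scaffold of the apoptosome, with 8.87 at 3 h and 8.14 at 0 h, 1.66-fold higher. Casp8, whose protein cleaves BID, had 8.40 at 3 h and 7.85 at 0 h, 1.47-fold higher, and so stood on the same side as Bid. The caspase inhibitor gene Xiap had 10.15 at 3 h and 9.70 at 0 h. Aifm1, which encodes a mitochondrial flavoprotein that can be released in cell death, was the lowest of the list, with 10.20 at 3 h and 10.61 at 0 h.

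Transcription factors that control family members went both ways. Of 15, 12 were measured and 10 reached the floor, with a median of 0.04. Of the 10, 1 was at least 1.5-fold higher, against 6.94% of counted genes, and 1 at least 1.5-fold lower, against 4.80%. Jun, an AP-1 gene whose protein induces Bcl2l11 in neurons, had 9.45 at 3 h and 10.66 at 0 h, 2.32-fold lower. Gata1, the erythroid factor that supports Bcl2l1 expression, had 10.15 at 3 h and 9.32 at 0 h, 1.78-fold higher. Gata1 is also on the list of erythroid progenitor markers, most of which were higher. Hif1a, which encodes the hypoxia factor upstream of Bnip3, had 10.79 at 3 h and 10.22 at 0 h. The NF-kB gene Rela was lower, with 9.68 at 3 h and 10.14 at 0 h. Foxo1, named here after its values were seen because of the FOXO motif, had 7.70 at 3 h and 7.61 at 0 h. Trp53, Foxo3 and Nfkb1 were not analysed here.

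Among 23 genes whose proteins modify, bind or degrade BCL2 family proteins, 19 were measured and 17 reached the floor. None was at least 1.5-fold higher, against 6.94% of counted genes, and 1 was at least 1.5-fold lower, against 4.80%. The median was 0.01, equal to that of all counted genes to 2 decimals. Pim3, of the PIM kinases that phosphorylate BAD, had 5.23 at 3 h and 5.82 at 0 h, 1.51-fold lower, and it was counted through its 0 h value alone. Huwe1, which encodes a ubiquitin ligase for MCL1, had 5.92 at 3 h and 5.37 at 0 h, 1.47-fold higher, and it was counted through its 3 h value alone. Usp9x, which encodes a deubiquitinase that stabilizes MCL1, was higher as well, with 8.17 at 3 h and 7.68 at 0 h. Gsk3b, whose kinase marks MCL1 for degradation, had 8.57 at 3 h and 8.24 at 0 h. Mcl1 RNA itself differed by -0.08.

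**Figure D3:**
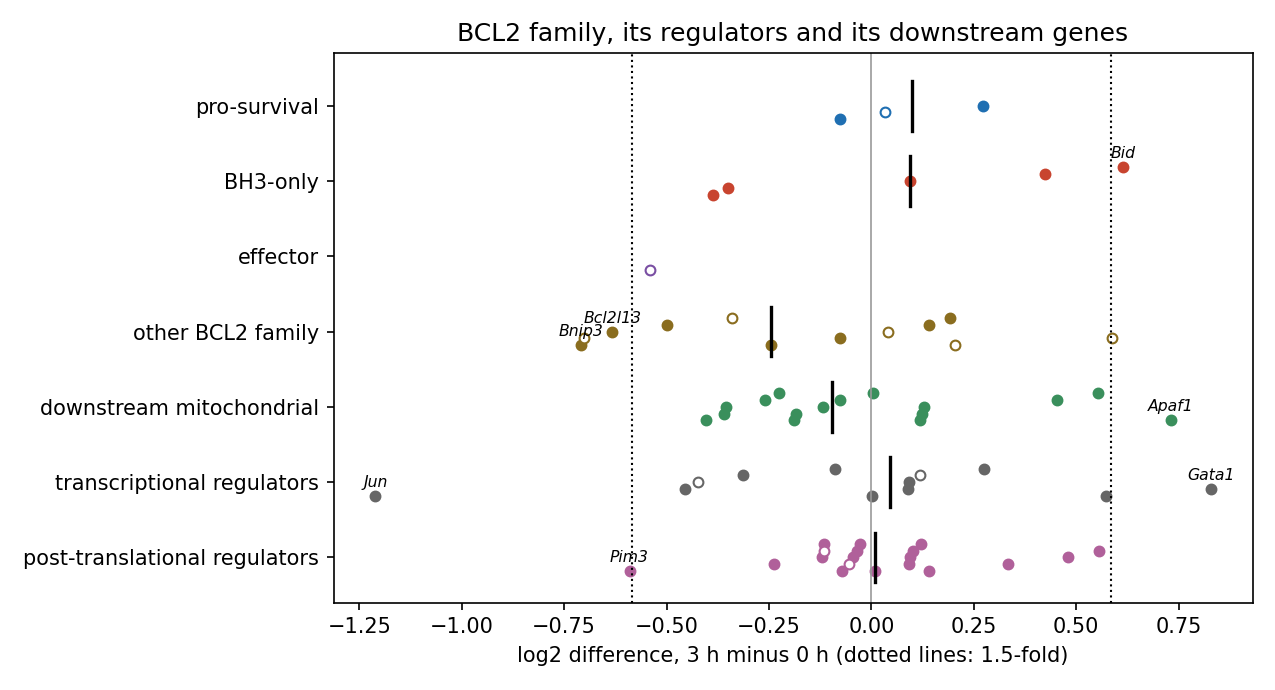
Log2 differences (3 h minus 0 h) of the members by role and of 4 further lists, 1 point per gene. Filled points reached the floor and open points did not, black bars are medians of the filled points, and names mark counted genes past the dotted lines for 1.5-fold, among them Bid (0.61), Bnip3 (-0.71), Apaf1 (0.73), Gata1 (0.83) and Jun (-1.21).

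Markers of other cells moved between the same 2 arrays, and BCL2 family genes are expressed in those cells too. All 10 granulocyte markers were measured and higher at 3 h, with a median of 0.97 whether or not they reached the floor, which 8 did at 3 h and 5 at 0 h. Among them S100a9 was 3.85-fold higher. Their summed signal on the linear scale was 12042.5 at 3 h and 6211.4 at 0 h, with Ltf and Mmp8 below the floor on both arrays. Of 10 macrophage markers, 7 were higher and 3 lower, with a median of 0.16. The 5 that reached the floor did so on both arrays, and of these Lyz2 was 3.55-fold higher at 3 h while Vcam1, which marks macrophages of erythroblastic islands, was 1.97-fold lower. Their summed signal was 2590.3 at 3 h and 1675.2 at 0 h. Lyz2, with 9.80 at 3 h and 7.98 at 0 h, gave most of that difference. Adgre1, C1qa, C1qb, Cd68 and Itgam were below the floor on both arrays. The granulocyte markers and the summed macrophage signal were higher at 3 h, as were Bid, Pmaip1, Apaf1 and Casp8. So were 7 of 8 measured erythroid progenitor markers. The part of these cell types in the differences of Bid, Pmaip1, Apaf1 and Casp8 was not tested.

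All 8 measured hepatocyte markers were lower, with a median of -0.19 and a summed signal of 75477.3 at 3 h and 83439.3 at 0 h. Of 8 measured erythroid progenitor markers 7 were higher, with a median of 0.45, and Epor was the one lower. Their summed signal was 10896 at 3 h and 7881.9 at 0 h. All 8 reached the floor, and 4 were at least 1.5-fold higher, against 6.94% of counted genes. These were Nfe2 (2.15-fold), Gata1 (1.78-fold), Tal1 (1.71-fold) and Tfrc (1.53-fold). Of 5 measured megakaryocyte markers 3 were higher and 2 lower, with a median of 0.07 and a summed signal of 386.9 at 3 h and 295.9 at 0 h. Of these, 4 reached the floor at 3 h and 1 at 0 h. Most of the difference in the sum came from Gp1bb, with 6.68 at 3 h and 4.49 at 0 h. Itga2b, the brightest, was lower with 7.05 at 3 h and 7.14 at 0 h. Of 6 measured lymphoid markers 4 were higher and 2 lower, with a median of 0.13 and a summed signal of 423.3 at 3 h and 292.0 at 0 h. Only 2 of them reached the floor at 3 h and 1 at 0 h. The brightest was Ptprc, a gene of leukocytes in general, with 7.99 at 3 h and 7.30 at 0 h. Nearly all of the difference in this sum came from Ptprc and Ighm. Cd3e, Cd79a, Cd4 and Cd8a were below the floor on both arrays. For comparison, 8965 of all 17874 genes were higher and 8907 lower, floor or not. The part of these marker differences in the lower Bnip3, Bcl2l13, Bbc3 and Bcl2l11 was not tested. Nor was it tested for the higher Bcl2l1, Bid, Pmaip1, Apaf1 and Casp8.

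**Figure D4:**
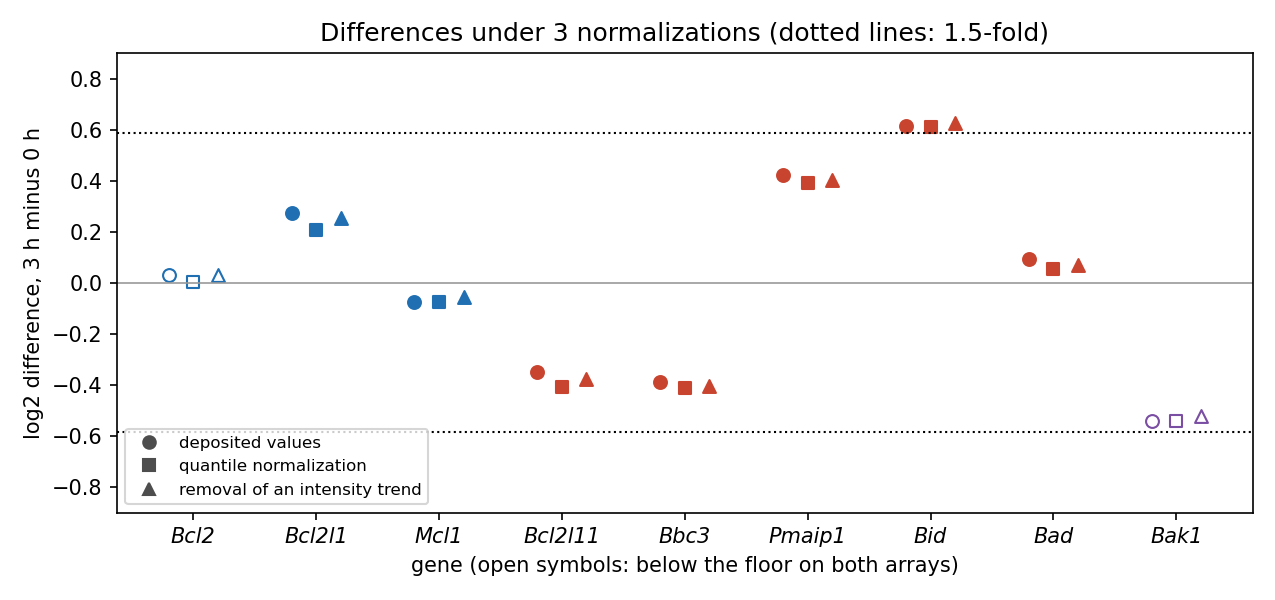
Log2 differences (3 h minus 0 h) of the 9 measured members from the deposited values (circles), after quantile normalization of both arrays against each other (squares) and after removal of an intensity trend (triangles). Each member keeps its side of 0 under all 3, Bid stays above the dotted line for 1.5-fold with values from 0.61 to 0.63, and open symbols mark genes below the floor.

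Each of the 9 members had the same sign in the deposited values, after quantile normalization and after removal of an intensity trend. The closest to 0 was Bcl2, at 0.0032 after quantile normalization. Bcl2l1 ranged from 0.21 to 0.27 and Bcl2l11 from -0.41 to -0.35 over these settings.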

How the data were processed

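The deposited table has 20666 probe sets on 2 arrays, hybridised with cRNA labelled from 1.5 µg of RNA per the labels' protocols. The authors deposited log2 values made by RMA with the affy package, per the submitters' processing notes. The sources used here give no versions and do not say which arrays were normalized together. Because RMA equalises the distribution of probe signals across arrays, a general shift in transcript levels would be invisible, and differences between dim signals are compressed. An array has no read depth.

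Values were used as deposited. By the platform's annotation, 17918 probe sets belonged to 1 gene, 79 to several and 2669 to none, and only the first kind was used. Entrez IDs tied 17767 of these to RefSeq (GRCm38.p6), with 0 symbols altered. Probe sets of a gene were averaged (43 genes, no member). The members and lists were chosen with earlier results of these data known. The genes named are all members, all other measured BCL2 family genes, and the 4 counted genes with the largest absolute difference in each further list, besides markers and Foxo1. No gene was named for a pattern like a member's, since 2 arrays give 1 difference per gene.

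Scripts used pandas 2.3.3, numpy 2.4.6, statsmodels 0.14.6 (loess) and matplotlib 3.10.9 under Python 3.11.15. The counting step was run on simulated data, with 2-fold differences planted in genes well above the floor and little noise. That run checks the code and says nothing of calls near 1.5-fold in these data. Alternatives were quantile normalization, removal of an intensity trend (loess, span 0.3), a gene's brightest probe set alone, no probe sets with the suffixes for several transcripts, no floor, a floor at the 60th percentile, the mean and a 2-fold threshold.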

Additional observations from a re-analysis of the deposited data

How the results depend on the processing

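Of 121 recomputed values, 119 stayed within the robust SD of all differences (0.31), or for counts within 1.5 times. That SD stands in for a spread between replicates, which these data do not have. Many of the 121 could not change. Each member has 1 probe set, so the brightest-probe-set, suffix and floor settings return a member's own difference unaltered or give no value. None past 1.5-fold reversed, but Bid's difference was the only result that large. At a 2-fold threshold 0 members were higher, against 1 at 1.5-fold, and with the floor at the 60th percentile (6.61) the other BCL2 family genes had a median of -0.57 over 4 genes, against -0.24 over 7. Small medians turned sign in 8 cases. The pro-survival median was -0.08 with that floor, where Mcl1 alone remained, and -0.02 without suffixed probe sets, where Bcl2l1 had no value and the floor fell enough to admit Bcl2. The gap of pro-survival over death genes was -0.17 and -0.12 in the same settings and 0.16 with no floor, so its direction depends on these choices. The median of transcriptional regulators was -0.09 without suffixed probe sets and its mean -0.02, and that of post-translational regulators was -0.03 both without suffixed probe sets and with no floor. The effector genes gave no median at the floor. Without suffixed probe sets, Bcl2l1 and Bak1 had no value. No paired analysis was possible because each time has 1 array, and for the same reason no array could be left out.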
